A study of Homo sapiens with 8 samples.

Results

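Ribosome footprints were compared between transgenic HEK293T cells grown with 1 mM NAEK and the same cells without it. With NAEK, footprints became denser in the stretch directly after the coding region on part of the protein-coding transcripts, by little in the sum over all of them and by more than 10 times on some single ones, such as ENST00000329421. That sum went from 0.542 to 0.618% of coding reads, and it also rose in HEK293T cells without the tRNA, from 0.573 to 0.615%. Among transcripts annotated as targets of nonsense-mediated decay no excess of at least 2 times higher over lower ratios was seen. Their summed footprints in that stretch still rose, from 9.01 to 9.25% of coding reads. Footprints within coding regions differed for few entries, under some settings only. The comparison used 4 of the 8 libraries of the series, 2 on each side, taken by the names of the deposited tables and their columns. Both groups are HEK293T cells that, per the labels, stably carry Mb pyltRNA. The group without NAEK carries it too. The deposited tables also hold entries for a pyrrolysyl-tRNA synthetase and a GFP construct, 2 in all. These stayed in the limma fits but were left out of the results here, except for an alternative setting named as such. The other 4 libraries are HEK293T cells without the tRNA, 2 without NAEK and 2 with it at 1 mM, and served as the control measured in the same way. HEK293T cells derive from human embryonic kidney and make the large T antigen of SV40. Labels leave unsaid whether the transgenic line is 1 clone and whether the replicates came from different cultures. The p-values therefore cover the spread between these libraries alone, and that spread may be technical.

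In the pyrrolysine system of methanogenic archaea, a dedicated synthetase charges a tRNA whose anticodon pairs with the amber stop codon UAG. Moved into human cells, the synthetase and tRNA place a supplied amino acid, here the azide-bearing lysine derivative NAEK, at amber codons, in competition with the release factor that ends translation at stop codons. A ribosome that passes a stop codon goes on into the 3′ untranslated region until it meets another one, and ribosome profiling, which sequences the mRNA fragments protected by ribosomes, shows such passage as footprints beyond the coding region. Nonsense-mediated decay is the pathway that removes mRNAs with early stop codons. Its annotated targets often share sequence with protein-coding isoforms of the same gene, whose footprints can lie beyond the early stop.

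For each transcript the tables give the density of footprints in RPKM, reads scaled by the length of the region and the total of the library, in the coding region and in a first and a second extended region. The sources used here do not define the extended regions, and they are taken here to lie behind the annotated stop codon and behind the following stop codon, in that order. The tables hold 82584 transcripts beside the transgenes, in 3 annotated types, with 65001 protein-coding entries, 17577 nonsense-mediated decay targets and 6 non-stop decay targets. Transcripts carry ENST ids only. Since 0 of them were paired with a gene symbol in the files and tables used here, they are named by id, and the stop codon of each was not used. Depth in transgenic cells was 17381811 (replicate 1) and 18367663 reads (replicate 2) without NAEK. With NAEK it was 17211388 and 12923243 reads, so that replicate 2 was the shallowest. The first extended density was expressed in percent of the coding density of the same transcript and library, called the ratio below, for the 30505 transcripts that averaged at least 50 coding reads over the 8 libraries. Of these, 27165 were protein-coding and 3339 decay targets. Transcripts of 1 gene can share reads and are not independent of each other.

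The ratio was 0 for most protein-coding transcripts in every library, and its distribution moved with NAEK in the middle of its range. In transgenic cells without NAEK, 68.1 and 67.4% of protein-coding transcripts had no read in the first extended region, and with NAEK 65.1 and 68.7%, a share that depends on depth. A ratio of at least 5% was reached by 21.2 and 21.7% without NAEK and by 24.9 and 23.4% with it. A ratio of at least 20% was reached by 10.9 and 11.4% without and by 12.8 and 12.6% with NAEK. Both libraries with NAEK lay above both libraries without it at each of these 2 levels, whereas at a ratio of 100% the libraries overlapped, at 2.84 and 3.09% without and 2.90 and 3.23% with NAEK. With all libraries thinned at random to the smallest total, at least 5% was reached by 19.1 and 19.9% of transcripts without NAEK and by 23.2 and 23.4% with it. In HEK293T cells the share reaching 5% overlapped, with 23.4 and 24.3% without NAEK and 23.6 and 24.8% with it, and both transgenic groups are thus to be read against a HEK293T level above that of untreated transgenic cells. The same held for the 2984 protein-coding transcripts averaging at least 1000 coding reads, where 24.4 and 24.7% reached 5% without NAEK, 29.3 and 29.0% with it, and 26.8 to 31.2% in the 4 HEK293T libraries.

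**Figure D1:**
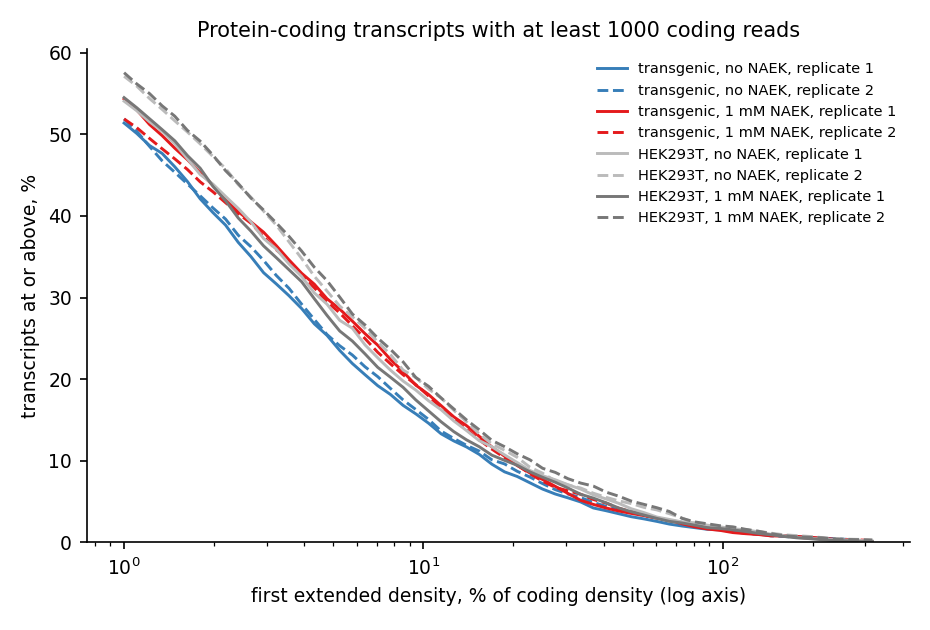
Percent of the 2984 protein-coding transcripts averaging at least 1000 coding reads (vertical axis) whose first extended density is at or above a given percent of their coding density (horizontal axis, log scale), 1 line per library. The 2 transgenic lines with NAEK (red) run above the 2 without it (blue) at 5%, where they stand at 29.3 and 29.0% against 24.4 and 24.7%, and the HEK293T lines (grey) stand at 26.8 to 31.2%.

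Decay targets had far higher ratios at the start and did not move in this measure. At least 5% was reached by 53.2 and 51.9% of them in transgenic cells without NAEK and by 53.4 and 52.1% with it. At least 50% was reached by 35.5 and 33.7% without and by 35.0 and 34.9% with NAEK. Libraries overlapped at both levels. In HEK293T cells, at least 5% was reached by 52.2 and 52.6% without NAEK and by 53.2 and 54.0% with it, which did not overlap.

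By coding level, the mean coding RPKM over the 8 libraries, the share of protein-coding transcripts reaching 5% was higher with NAEK, without overlap, in the lower 4 of 5 ranges. Among the 14410 transcripts under 10 RPKM it was 16.6 and 17.0% without and 19.9 and 17.7% with NAEK. Among the 7175 transcripts from 10 to 30 RPKM it was 26.4 and 27.0% against 30.7 and 29.4%. The widest step was found among the 3772 transcripts from 30 to 100 RPKM, with 26.6 and 28.4% against 31.8 and 32.4%. From 100 to 300 RPKM (1298 transcripts) it was 27.7 and 25.6% against 28.5 and 28.0%. Among the 510 transcripts at 300 RPKM and more, 21.8 and 19.4% stood against 22.2 and 20.6%, and libraries overlapped. In HEK293T cells, libraries with and without NAEK overlapped in all 5 ranges. For decay targets, transgenic libraries overlapped in all 5 ranges.

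**Figure D2:**
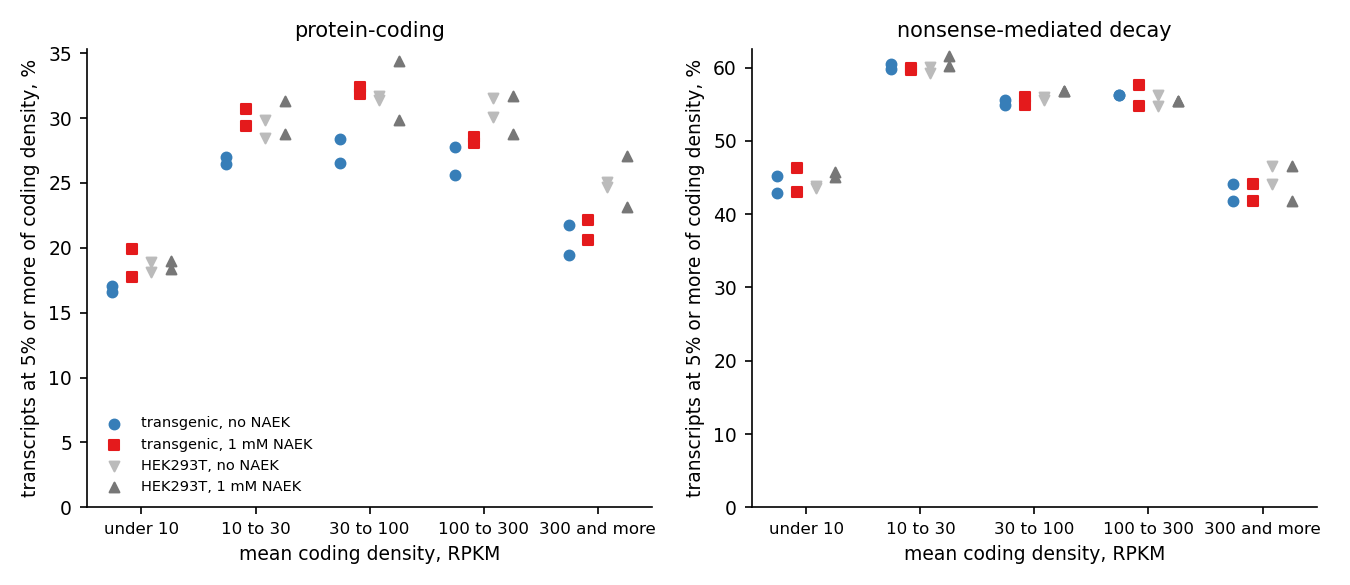
Percent of transcripts whose first extended density is at least 5% of their coding density (vertical axes, from 0), by mean coding RPKM, for protein-coding transcripts (left) and nonsense-mediated decay targets (right), 1 point per library. Protein-coding transcripts from 30 to 100 RPKM stand at 31.8 and 32.4% with NAEK (red) and 26.6 and 28.4% without it (blue), and for decay targets the red and blue points overlap in each range.

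Transcripts were next grouped by their mean ratio in the 4 HEK293T libraries, which take no part in the comparison. Protein-coding transcripts with few or no footprints after the stop codon in HEK293T cells held 1.83 to 2.09 times as many first extended reads, relative to coding reads, with NAEK in transgenic cells. Where the HEK293T ratio was above 0 and under 1% (1666 transcripts), first extended reads made up 0.0933 and 0.0886% of coding reads without NAEK and 0.186 and 0.194% with it, 2.09 times as much. Of these transcripts, 2.52 and 2.76% reached a ratio of 5% without NAEK and 10.5 and 11.9% with it. By this measure the libraries overlapped from 5 to 20%, and at higher HEK293T ratios fewer transcripts reached 5% with NAEK, 55.4 and 51.8% against 57.0 and 59.0% from 20 to 100%, and 75.9 and 71.3% against 76.9 and 77.5% at 100% and more, values not thinned for depth. Where no HEK293T library had a read (11250 transcripts), the share was 0.034 and 0.0352% without and 0.0606 and 0.0661% with NAEK, 1.83 times as much. From 1 to 2% (1877 transcripts) it was 1.84 times, from 2 to 5% (3521 transcripts) 1.51 times and from 5 to 20% (4983 transcripts) 1.18 times as high with NAEK, each without overlap. Above a HEK293T ratio of 0 the step was thus smaller the higher that ratio, and from 20 to 100% (2884 transcripts) it was 1.03 times, with 1.75 and 1.80% without and 1.81 and 1.83% with NAEK. At 100% and more (804 transcripts), libraries overlapped at 11.7 and 12.5% against 12.7 and 11.8%. Two-sided exact permutation tests of 2 libraries against 2 give p = 0.333 at the smallest, so none of these shares can pass a threshold of 0.05 on its own.

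Decay targets had smaller steps in each of the 7 groups, in a different order. Where the HEK293T ratio was 0 (932 transcripts), first extended reads were 0.0417 and 0.04% of coding reads without and 0.062 and 0.0574% with NAEK, 1.46 times as much. Above 0 and under 1% (134 transcripts) they were 1.38 times as high. From 1 to 2% (106 transcripts) they were 0.226 and 0.186% against 0.345 and 0.337%, 1.66 times as much. From 2 to 5% (174 transcripts) they were 1.25 times and from 5 to 20% (338 transcripts) 1.10 times as high. Up to 20%, libraries did not overlap in any group. From 20 to 100% (915 transcripts), libraries overlapped at 14.8 and 14.4% against 14.4 and 15.4%. The percent of decay targets reaching a ratio of 5% was higher without overlap from above 0 to 5%. It overlapped at 0 and from 5 to 100%, and was lower at 100% and more. The difference between the types was not tested.

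**Figure D3:**
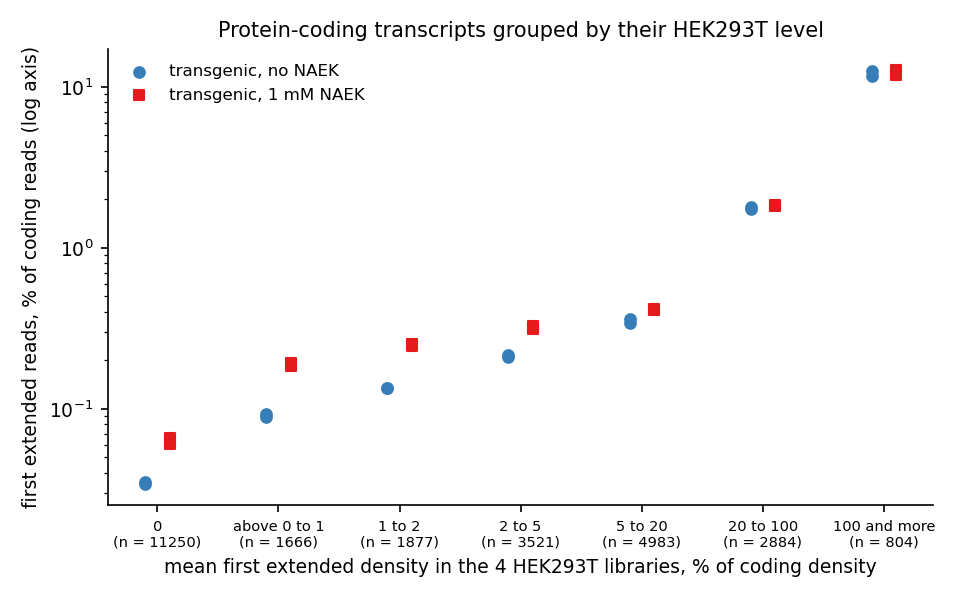
First extended reads in percent of coding reads (vertical axis, log scale) in the 4 transgenic libraries, for protein-coding transcripts grouped by their mean ratio in the 4 HEK293T libraries (horizontal axis, with the number of transcripts), 1 point per library. Points with NAEK (red) stand above those without (blue) up to 20%, by 1.83 times at a HEK293T ratio of 0 and 1.18 times from 5 to 20%, and overlap at 100% and more.

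Summed over all 27165 protein-coding transcripts, first extended reads without NAEK were 0.534 and 0.551% of coding reads, against 0.625 and 0.612% with NAEK. The means, 0.542 ± 0.0118% and 0.618 ± 0.0093% (SD, n = 2), differed by 0.0763 percentage points (exact permutation p = 0.333, the smallest possible). In each of the 5 ranges of coding level the libraries with NAEK were higher without overlap, by 1.19 times under 10 RPKM, 1.18 times from 10 to 30, 1.16 times from 30 to 100, 1.09 times from 100 to 300 and 1.11 times at 300 RPKM and more. HEK293T cells also had the higher sum with NAEK, 0.615% against 0.573%, and there only the range from 10 to 30 RPKM was higher without overlap, by 1.28 times. Of the 0.0763 points in transgenic cells, 0.0397 came from the 502 transcripts that are described next as higher in both replicates and were chosen for it. Another 0.0397 came from the 26531 transcripts listed neither as higher nor as lower, which in HEK293T cells rose by 0.0422 points with NAEK. In decay targets the summed share was 9.01 ± 0.0637% without and 9.25 ± 0.0097% with NAEK (SD, n = 2), with HEK293T libraries overlapping. By coding level, decay targets from 30 to 100 RPKM were lower with NAEK without overlap, at 11.8 and 11.9% against 12.1 and 12.1%, those from 10 to 30 RPKM and from 100 to 300 RPKM overlapped, and those under 10 and at 300 RPKM and more were higher.

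A transcript was counted as higher in both replicates where both libraries with NAEK had a ratio at least 2 times that of either library without it and at least 5 percentage points above, and as lower by the mirrored rule. Among the 7798 transcripts with at least 50 mean coding reads and at least 10 first extended reads over the 8 libraries, 522 were higher (6.69%) and 166 lower (2.13%). With 1 transgenic library left out, which makes the rule easier to meet, 906 to 956 were higher and 413 to 597 lower. The same rule in HEK293T cells found 120 higher (1.54%) and 103 lower (1.32%). The excess of higher transcripts lay in the protein-coding ones, where 502 of 6081 were higher (8.26%) and 132 lower (2.17%), against 101 (1.66%) and 89 (1.46%) in HEK293T cells. Of 1717 decay targets, 20 were higher (1.16%) and 34 lower (1.98%), against 19 (1.11%) and 14 (0.815%) in HEK293T cells. Their median ratios without NAEK were already 74.5 and 69.6%, where the 2 times rule asks for a far larger gain in points. The minimum of 10 reads favours transcripts that gained reads. With both minimums met in the 4 HEK293T libraries alone, which left 5280 transcripts, 160 were higher and 91 lower, against 55 and 42 in HEK293T cells. The 502 ids had 472 distinct pairs of coding and first extended lengths, so some may be isoforms that share both regions.

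Each replicate pair was also read alone, with the 2 times and 5 point rule between same-numbered libraries. Of 1357 protein-coding transcripts that were higher in replicate 1, 606 were higher in replicate 2 (44.7%) and 227 lower (16.7%). Of 1322 that were higher in replicate 2, 606 were higher in replicate 1 (45.8%) and 177 lower (13.4%). Of 739 transcripts lower in replicate 1, 209 were lower (28.3%) and 177 higher (24.0%) in replicate 2. These counts are to be read against all protein-coding transcripts that moved in replicate 2, where 975 were lower and 1322 higher. In HEK293T cells, 724 transcripts were higher in replicate 1, and 174 of these were higher and 162 lower in replicate 2. Among decay targets of transgenic cells, 193 were higher in replicate 1, and 41 of these were higher and 40 lower in replicate 2. A gain by the rule in 1 replicate was thus met again by the rule in under 50% of transgenic protein-coding transcripts. Counting any size, 859 of the 1357 were higher in replicate 2 and 444 lower, and 890 of the 1322 were higher in replicate 1 and 398 lower. In HEK293T cells, 375 of the 724 were higher in any degree and 331 lower.

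Higher protein-coding transcripts had longer first extended regions, by the median, than all tested ones, which include them. The median length was 87 nt in the 502 (interquartile range 57 to 159 nt) and 69 nt in the 6081 tested. Of the 1256 tested regions under 30 nt, 40 were higher and 51 lower. Of the 1409 from 30 to under 60 nt, 89 were higher and 44 lower, and of the 1704 from 60 to under 120 nt, 188 and 26. From 120 to under 240 nt (1233 regions) 134 were higher and 9 lower, and at 240 nt and more (479 regions) 51 were higher and 2 lower. The HEK293T counts were 29 higher and 25 lower under 30 nt and 2 higher and 3 lower at 240 nt and more. Regions shorter than a footprint can hold reads of ribosomes at the end of the coding region, and that their counts moved both ways is given without a test. By coding level, 138 of 1149 transcripts under 10 RPKM were higher, 185 of 1771 from 10 to 30, 148 of 1841 from 30 to 100, 26 of 909 from 100 to 300 and 5 of 411 at 300 RPKM and more. Low coding levels also had the most lower transcripts, 50 under 10 RPKM and 1 at 300 RPKM and more.

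**Figure D4:**
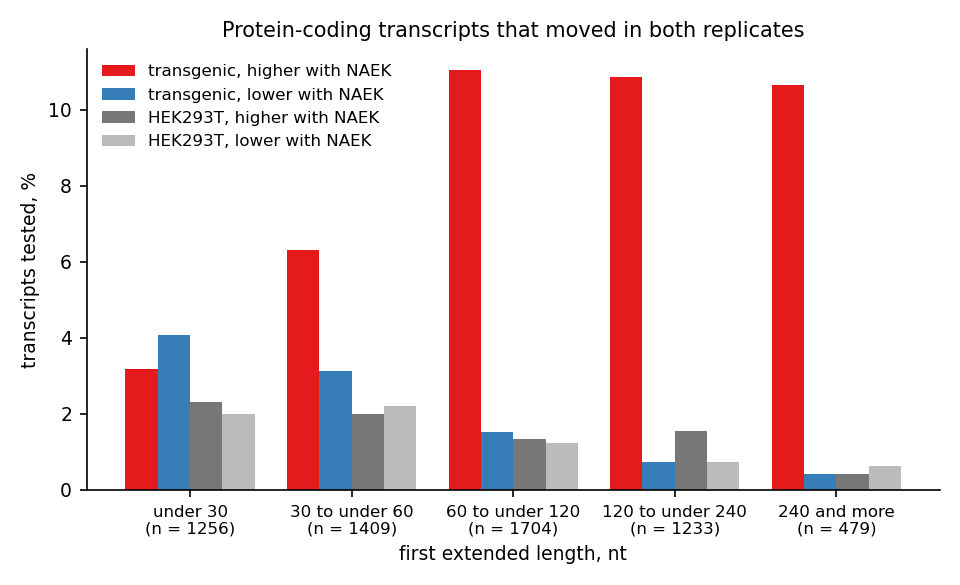
Percent of tested protein-coding transcripts whose ratio was higher or lower with NAEK in both replicates (vertical axis, from 0), by length of the first extended region (horizontal axis, with the number tested), in transgenic and HEK293T cells. Higher transcripts in transgenic cells (red) number 40 of 1256 under 30 nt and 188 of 1704 from 60 to under 120 nt, and lower ones (blue) 51 and 26.

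The coding regions of these 502 transcripts and their ratios in HEK293T cells were examined next. Coding density is the denominator of the ratio, so the coding values of the transgenic libraries entered the choice. The median log2 change of their coding regions was 0.03, against 0.01 over the tested protein-coding transcripts. At an unadjusted limma p under 0.05, 18 of the 502 coding regions were higher and 17 lower. Of the tested protein-coding transcripts, 6075 had a coding test, with 162 higher and 176 lower. Over all 46154 coding regions, of any type and with fewer reads, 1748 were higher (3.79%) and 990 lower (2.14%). Their median ratio, by library, went from 0.986 and 1.24% without NAEK to 23.7 and 23.2% with it, values that the choice of transcripts sets. In the 4 HEK293T libraries, which entered the choice only through the minimum numbers of reads, it was 2.74 to 3.40%. Of the 502, 425 had under 50 first extended reads over the 8 libraries.

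The second extended region, which the rule did not use, held more footprints in the same 502 transcripts. Its reads made up 0.0629 and 0.0673% of their coding reads without NAEK and 0.120 and 0.116% with it, and 0.0594 to 0.0796% in the 4 HEK293T libraries. The transgenic means were 0.0651 ± 0.0032% and 0.118 ± 0.003% (SD, n = 2), 1.81 times apart (exact permutation p = 0.333, the smallest possible). Both libraries with NAEK were thus above all 6 others. Without the 10 transcripts with the most second extended reads the step was 1.89 times, from 0.0436 to 0.0824%. In single transcripts, 230 of the 502 had a second extended read in a transgenic library, and the second extended density was above without overlap for 52 and below for 10. Of all 6081 tested protein-coding transcripts, 441 were above (7.25%) and 223 below (3.67%), and their second extended share went from 0.346 and 0.334% to 0.365 and 0.375%. The shares of the 502 rest on 251 and 290 second extended reads in the transgenic libraries without NAEK, and on 475 and 349 in those with it. For the 132 lower protein-coding transcripts, second extended shares overlapped, at 0.216 and 0.271% without and 0.249 and 0.263% with NAEK.

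Single transcripts were read among those that averaged at least 1000 coding reads and held at least 50 first extended reads over the 4 transgenic libraries. Of 299 such protein-coding transcripts, 33 had ratios at least 2 times as high in both libraries with NAEK as in either without it, which is 11.0%, and 1 was lower (0.334%), against 0 (0.0%) and 1 (0.334%) in HEK293T cells. Of 38 such decay targets, 0 were higher and 0 lower. The minimum of 50 reads was counted in the transgenic libraries and favours transcripts that gained reads with NAEK, and 12 of the 33 also had 50 reads in the HEK293T libraries. With both minimums met in the HEK293T libraries alone (366 protein-coding transcripts), 13 were higher and 6 lower by at least 2 times in transgenic cells, against 0 and 0 in HEK293T cells. The 33 first extended regions were 42 to 255 nt long, with a median of 114 nt, and 32 had a length in whole codons. Across the 33, the ratio without NAEK had medians of 1.78 and 2.03% and with NAEK of 11.0 and 13.1%. The 4 HEK293T medians were 1.61 to 3.27%. In all 33, both libraries with NAEK were above each of the 4 HEK293T libraries, a description only, since the choice picked high values with NAEK. Coding changes of the 33 ran from -0.38 to 0.33 on the log2 scale. The 33 ids had 31 distinct pairs of lengths.

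ENST00000331710 and ENST00000369085 had the widest gaps and reached or passed the density of their own coding regions. In ENST00000331710, with a first extended region of 48 nt, the ratio was 13.1 and 9.33% without NAEK and 139.8 and 110.6% with it, on 4 and 3 against 42 and 24 reads. Its HEK293T libraries ranged from 13.4 to 28.4%. In ENST00000369085, with a region of 45 nt, the ratio was 18.1 and 9.34% without NAEK and 210.8 and 111.1% with it, on 5 and 3 against 51 and 23 reads. The replicates with NAEK thus lay far apart there, though both above all other libraries.

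ENST00000264954 (87 nt) went from 5.61 and 2.23% to 75.2 and 51.0%, on 9 and 4 against 105 and 46 reads. By limma the change of its region was 3.47 on the log2 scale (SE 0.86, adjusted p = 0.119) and did not pass. ENST00000470487 (81 nt) went from 4.32 and 6.27% to 40.7 and 54.8%, ENST00000376395 (60 nt) from 11.5 and 2.17% to 62.9 and 45.3%, and ENST00000257468 (60 nt) from 6.26 and 6.38% to 71.7 and 36.0%. None of these 3 passed the test by limma, with adjusted p of 0.087, 0.124 and 0.123. ENST00000264220 (102 nt) had 0 and 4 reads against 30 and 23 with NAEK, and ENST00000416762 (108 nt) had 8 and 1 against 24 and 22. These 2 did not pass either, with adjusted p of 0.116 and 0.185 by limma. In each of these transcripts the 2 libraries with NAEK were higher than all 6 others.

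ENST00000329421 combined low ratios without NAEK with many reads. In its first extended region of 204 nt, density was 0.357 and 0.563% of the coding density without NAEK, on 3 and 5 reads, and 19.8 and 23.9% with it, on 171 and 190 reads. HEK293T libraries stood at 0.293 to 1.13%. In ENST00000303577 (60 nt), 7 and 5 reads stood against 84 and 78 with NAEK. Its ratio rose from 1.78 and 1.11% to 22.3 and 25.3%, and HEK293T libraries stood at 2.31 to 4.03%. In ENST00000253794 (93 nt), 2 and 3 reads became 54 and 35, and the ratio went from 1.12 and 1.45% to 34.4 and 25.6%. ENST00000379160 (135 nt) had the narrowest spread, with 0.562 and 0.451% without NAEK and 6.74 and 6.71% with it. On the log2(RPKM + 1) scale, the first extended regions rose by 4.86 in ENST00000329421 (SE 0.50), 3.81 in ENST00000303577 (SE 0.37), 3.70 in ENST00000253794 (SE 0.58) and 3.40 in ENST00000379160 (SE 0.46). Adjusted p by limma was 0.0354, 0.0354, 0.0382 and 0.0354.

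**Figure D5:**
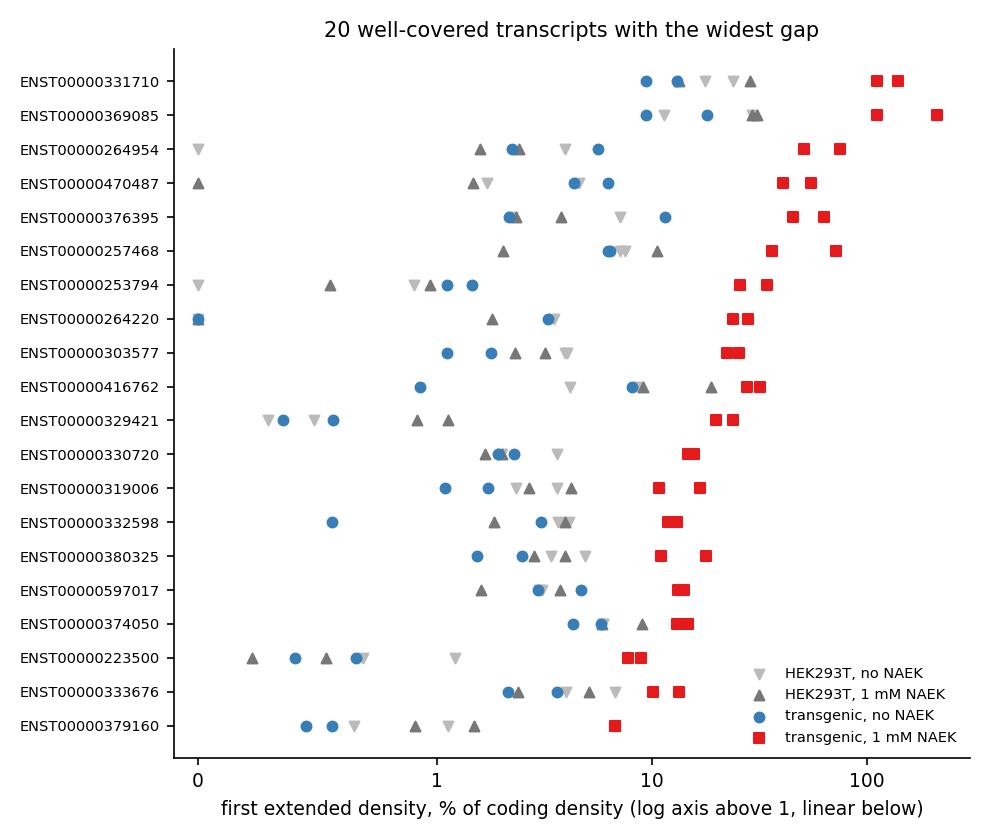
First extended density in percent of coding density (horizontal axis, linear from 0 to 1 and log above) for the 20 of 33 well-covered protein-coding transcripts with the widest gap, 1 point per library, in order of the gap. In each row both transgenic libraries with NAEK (red) stand to the right of the libraries without it (blue) and of the 4 HEK293T libraries (grey), as for ENST00000329421 at 19.8 and 23.9% against 0.357 and 0.563%.

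The other transcripts among the 20 with the widest gaps reached ratios under 20% with NAEK. ENST00000330720 went from 1.92 and 2.29% to 15.7 and 14.7%, ENST00000319006 from 1.09 and 1.73% to 10.7 and 16.7%, and ENST00000223500 from 0.660 and 0.406% to 7.77 and 8.87%. These 3 passed by limma, with adjusted p of 0.0383, 0.0416 and 0.0416. ENST00000332598, ENST00000380325, ENST00000597017, ENST00000374050 and ENST00000333676 had ratios of 0.560 to 5.81% without NAEK and 10.1 to 17.9% with it, and did not pass. The 1 lower transcript was ENST00000270625 (30 nt), where 26 and 27 reads stood against 10 and 5 with NAEK. Its ratio went from 5.45 and 4.75% to 2.03 and 1.26%, and its change of -1.58 on the log2 scale did not pass (limma adjusted p = 0.175).

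Across all regions, limma on log2(RPKM + 1) over the 8 libraries called 124 of 7798 first extended regions higher with NAEK in transgenic cells (1.59%) and 11 lower (0.141%) at an adjusted p of 0.05. Of the 33 transcripts above, 12 were called, and 32 had an unadjusted p under 0.05. The same test called 0 regions in HEK293T cells (0.0%), with 152 higher (1.95%) and 131 lower (1.68%) at an unadjusted p under 0.05. At that level, 698 were higher (8.95%) and 272 lower (3.49%) in transgenic cells. Voom called 2 regions in HEK293T cells. Of the 124, 111 were also higher by the ratio rule in both replicates, which is 89.5% of the called and 21.3% of the 522. The count of 135 depended on single libraries, and was 0 without either transgenic library without NAEK, 39 without replicate 1 with NAEK and 4 without replicate 2 with NAEK. It was also 0 with only the 4 transgenic libraries in the fit, and 273 with voom on recovered reads. For the ratio itself, limma called 1 of 7798 (0.0128%), ENST00000329421 (adjusted p = 0.0486), as higher and 0 lower (0.0%). At an unadjusted p under 0.05, 637 were higher (8.17%) and 257 lower (3.3%).

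Whether the NAEK effect differed between transgenic and HEK293T cells was tested as an interaction. Over 7798 first extended regions limma called 0 (0.0%), with 676 at an unadjusted p under 0.05, 503 of them larger in transgenic cells, and voom called 21. Over the 2689 regions with at least 50 reads over the 8 libraries, 16 were called (0.595%), all with the larger rise in transgenic cells. That minimum favours regions that gained reads in 1 group, and 2 of the 16 had 50 reads in the HEK293T libraries alone, so their common direction is no support. In ENST00000303577 the rise was larger by 4.42 on the log2 scale (limma adjusted p = 0.016) and in ENST00000329421 by 4.08 (limma adjusted p = 0.0185). Over all 7798 regions, the adjusted p by limma of these 2 was 0.1145 and 0.1905. ENST00000330133 (150 nt) had 28 and 19 reads with NAEK against 0 and 1, and differed by 4.06 (limma adjusted p = 0.016). ENST00000255390 (174 nt) had 41 and 30 reads with NAEK and 0 in either library without it, and ENST00000379731 (105 nt) had 43 and 41 against 1 and 0. Their adjusted p by limma was 0.0329 and 0.0266. HEK293T libraries held 0 to 3 reads in ENST00000330133, 0 to 4 in ENST00000255390 and 2 to 6 in ENST00000379731. ENST00000329421, ENST00000330133, ENST00000255390 and ENST00000379731 met the minimum of 50 reads only through the transgenic libraries with NAEK. Their adjusted p-values are thus a description and no support. All 16 lay on protein-coding transcripts, and 6 were among the 33 above.

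In second extended regions, limma called 1 of 3237 higher (0.0309%) and 1 lower (0.0309%), both on regions of few reads. At an unadjusted p under 0.05, 116 were higher (3.58%) and 108 lower (3.34%). Of regions with at least 50 reads over the 4 transgenic libraries, 1041 in all, 3 were higher and 2 lower by at least 2 times in both replicates, and none of the 5 passed the test by limma. The highest was again ENST00000303577, with a region of 27 nt and a log2 change of 4.05 (limma adjusted p = 0.542). It had 25 and 27 reads with NAEK against 1 and 2, and met the minimum of 50 reads only through the libraries with NAEK. ENST00000532444, a decay target with a second extended region of 30 nt, had 28 and 21 reads with NAEK against 72 and 90, and 67 to 87 in HEK293T libraries (log2 change -1.45, limma adjusted p = 0.0975). Over all protein-coding transcripts the second extended share was 0.236 ± 0.0058% without and 0.250 ± 0.0066% with NAEK (SD, n = 2), and it rose likewise in HEK293T cells, from 0.240 to 0.265%.

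Limma with group as the only factor called no coding region. Of 46154 coding regions with a mean of at least 1 RPKM, 0 were called higher (0.0%) and 0 lower (0.0%). The split of 1748 higher and 990 lower regions at an unadjusted p under 0.05 turned to 1238 and 1304 after quantile normalization between libraries. Voom on recovered reads called 8, all lower with NAEK. Of these 8, 7 had the same lengths, 312 nt coding and 69 nt first extended, and mean coding densities of 1239 to 1294 RPKM, and may be copies or isoforms between which reads cannot be told apart. Their mean density was 1417 and 1539 RPKM without NAEK and 637 and 765 RPKM with it, on a sum of 53793 and 61736 against 23961 and 21585 reads. In the HEK293T libraries it ran from 1247 to 1723 RPKM. ENST00000612061, for one, stood at 1430 and 1564 RPKM without and 647 and 759 RPKM with NAEK. By limma the changes of the 7 were -1.11 to -1.05 on the log2 scale with adjusted p of 0.364 to 0.390, against HEK293T changes of -0.23 to -0.19. With the replicate number as a block, limma called these 7 as lower, with adjusted p of 0.0122 to 0.0183, and with no filter on low values it called 1 other entry, ENST00000637873, at a mean of 0.219 RPKM. The libraries of the groups did not overlap. The eighth, ENST00000343677 (642 nt coding), went from 4331 and 4278 to 2730 and 2874 RPKM, with a voom adjusted p of 0.000126, and 4459 to 4941 RPKM in HEK293T libraries. Among coding regions of at least 10 RPKM that were higher without overlap, ENST00000518125 had the smallest unadjusted p, with 7.94 and 8.45 RPKM without and 14.0 and 13.8 RPKM with NAEK (log2 change 0.70, limma adjusted p = 0.530).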

How the data were processed

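The TruSeq Ribo Profile kit was used, per the labels' protocols, and the submitters' processing notes name Bowtie 1.2.2 and hg38. The authors deposited RPKM per transcript and region, per the file headers, 1 table per group. The sources used here do not give the annotation or how reads that match several transcripts were counted. Whole reads were recovered from the RPKM steps, with the library total fixed by the synthetase entry, whose own name gives its length. Of values above 0, 100.0% came out whole within 0.01 reads. Where reads are few, a recovered length can be too short. Shares, minimums and voom used the recovered reads. Totals were 12923243 to 20569590 reads, of which 91.3 to 91.7% lay in the 3 regions. A floor of 3 reads is at most 2.32e-05% of a library.

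The main test was limma 3.58.1 in R 4.3.3 on log2(RPKM + 1), which understates changes of low values, with group as the only factor, all 8 libraries, a variance trend, and Benjamini-Hochberg adjustment over all regions of a kind (threshold 0.05). It was also run on simulated reads with a fixed spread, which need not match the spread of these libraries. Named first extended regions are, of transcripts with at least 1000 mean coding reads and 50 first extended reads in transgenic libraries, the up to 20 with the widest gap among those at least 2 times apart. The 3 transcripts named from the interaction beyond these, and the coding regions named from voom, were chosen after their values were seen. Up to 5 coding regions of at least 10 RPKM and second extended regions a direction, without overlap, were ranked by p and by log2 change, and the first are named. Members, lists and rules were chosen with earlier results of these data known. Gene lists, marker genes and stop codons were not analysed, since ids could not be paired with genes or sequences here. Other steps used pandas 2.3.3 and numpy 2.4.6 in Python 3.11.15, with scipy 1.17.1 for exact tests and matplotlib 3.10.9 for plots.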

Additional observations from a re-analysis of the deposited data

Results flagged for a closer look

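Among nonsense-mediated decay targets with a coding level under 10 RPKM, the share of first extended reads moved in opposite directions with NAEK in the 2 lines. In transgenic cells it was 5.15 and 5.18% of coding reads without NAEK and 5.44 and 5.29% with it. In HEK293T cells it was 4.99 and 5.08% without and 4.96 and 4.98% with NAEK. The changes differed by 0.271 percentage points between the lines, and this difference was not tested. The HEK293T change was -0.0686 points, near the SD of 0.0644 points between its libraries without NAEK. From 30 to 100 RPKM and at 300 RPKM and more, the changes had the same sign in both lines. From 10 to 30 and from 100 to 300 RPKM the signs were opposite, with overlapping libraries.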

How the results depend on the processing

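Counts of called regions moved with most settings, and in the regions named by rank no log2 change turned its sign under any alternative run. First extended regions called in the main run came out weaker in part of the 14 runs. These were 6 runs for ENST00000303577 and ENST00000329421, and 9 for ENST00000223500 and ENST00000319006. Of the regions not called, ENST00000470487 came out stronger in 3 runs. Called coding regions (0) numbered 1 with no filter and 8 with voom. First extended calls (135) numbered 20 with a pseudocount of 0.1 RPKM, 225 with 5 RPKM, 0 with no filter, 50 with at least 50 reads, 0 with only the 4 transgenic libraries, 75 without a variance trend, 67 after quantile normalization and 273 with voom, and 0 to 39 with 1 library left out. Second extended calls (2) numbered 4 and 1 with those pseudocounts, 1 with no filter, 0 with at least 50 reads, 0 with the 4 libraries and 0 with voom, and 1 to 6 with 1 library left out. Ratio calls (1) numbered 34 and 37 with those pseudocounts, 0 with no filter, 45 with at least 50 reads, 0 with the 4 libraries, 42 without a trend and 0 after quantile normalization, and 0 to 0 with 1 library left out. The cause was not tested.

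The protein-coding difference of 0.0763 points was 0.0457 with at least 1000 coding reads, 0.834 as a mean of capped ratios, 0.174 with the transgenes and 0.0679 to 0.0847 with 1 library left out. The decay target difference of 0.242 points was 0.408 with at least 10 coding reads, 0.494 as a mean of capped ratios and 0.198 to 0.288 with 1 library left out. The difference of 2.69 points in transcripts reaching 5% was 3.78 after thinning, 4.59 with at least 1000 coding reads, 3.98 with regions of at least 30 nt or no read, and 1.94 to 3.43 with 1 library left out. Higher transcripts (522) numbered 977 without the 2 times rule, 80 with at least 50 reads, 115 with at least 1000 coding reads and 160 with minimums in HEK293T alone, and 906 to 956 with 1 library left out. Lower transcripts (166) numbered 557, 14, 23 and 91 under the same settings, 98 with regions of at least 30 nt, and 413 to 597 with 1 library left out. Minimums in HEK293T (well-covered transcripts included), thinning of the share reaching 5% and the 30 nt settings were added after seeing the data.

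Replicate numbers form 2 pairs, and no label ties them to a shared batch or day. Deviations of replicate 1 correlated at 0.048 between the transgenic groups and at 0.137 to 0.324 between the other 5 pairs of groups, so a link between same-numbered libraries is not settled and the replicate number was kept as an alternative. With the replicate number as a block, limma called 7 coding, 0 first extended and 3 second extended regions and 0 ratios. The protein-coding difference was 0.0763 and the decay target difference 0.242 points. Within replicate numbers, 647 transcripts were higher and 258 lower. Shares by stop codon were not run, since no sequences of these transcripts were used here. Most first extended regions hold few reads, which limits single calls.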
